A study of Mus musculus with 6 samples.

Results

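The ErbB receptors and the ligands that bind them were followed in mouse mammary tumors after treatment of the animals for 21 days. The set was fixed as 10 genes, the receptors Egfr, Erbb2, Erbb3 and Erbb4 and the ligands Areg, Ereg, Btc, Hbegf, Tgfa and Nrg1. A gene was read through array probe sets annotated to that gene alone, and 8 of the 10 genes had at least 1, among 12393 genes in all. Areg and Nrg1 were not analysed here. The 8 genes had 17 probe sets, and each gene was represented by the probe set with its highest mean over the 6 arrays. Total RNA came from mammary tumors of 3 samples given vehicle and 3 samples given VX680, miltefosine and WP1066 together. VX680 inhibits Aurora kinases, miltefosine is an alkylphosphocholine, and WP1066 inhibits JAK2 and STAT3. Neither an ErbB receptor nor an EGF-family ligand is among these named targets. The labels used here give no tumor model, strain, age or dose, and they do not tie each sample to its own animal. The p-values therefore measure only how far these samples lie apart, and part of that spread may be technical.

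ErbB receptors are membrane tyrosine kinases that signal as pairs. Egfr is a receptor, not always the only one, of EGF, TGF-alpha, amphiregulin, epiregulin, betacellulin and HB-EGF. Erbb3 and Erbb4 are receptors of neuregulins. Erbb2 has no known ligand of its own and acts as a partner of the others, and Erbb3 has little kinase activity of its own. The ligands are made as membrane precursors and are released by metalloproteases. In the mammary gland the family acts in duct growth and milk production, and amplified or overexpressed Erbb2 drives a class of human breast cancer.

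Each value is the deposited expression on the log2 scale for 1 probe set on 1 array, so that a difference of 1 is a doubling. Probe sets differ in how strongly they bind their transcript, and levels were therefore compared between samples and not between genes. The array medians over single-gene probe sets lay between 6.79 and 6.82 and the lower quartiles between 4.50 and 4.58, which serve as marks on the scale. In bulk tumor RNA, fewer cells of a type and less RNA per cell cannot be told apart. The 9 epithelial markers, including Epcam, Krt8 and Krt18, had means over the arrays of at least 8.59, and their summed log2 level ranged from 96.5 to 98.95 in vehicle and from 97.72 to 100.16 under the drugs. Skeletal muscle transcripts varied between arrays of the same group, with summed log2 levels of 24 genes from 152.63 to 231.75 in vehicle and from 114.54 to 209.93 in drug-treated tumors. They were highest in vehicle replicate 3 and, among drug-treated tumors, in drug replicate 1, so results were also computed without these arrays.

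The comparison asked whether the drug combination went with a change in the receptors or ligands. Erbb2 had the lower and Hbegf the higher mean in drug-treated tumors, by 1.16-fold and 1.20-fold, and in these 2 of the 8 genes the 3 drug values lay wholly on one side of the 3 vehicle values. The same separation was seen in 17.1% of all genes tested, 7.73% with higher and 9.37% with lower drug values. Tgfa had a higher mean with 1 drug value below the highest vehicle value. Egfr, Erbb3, Erbb4, Ereg and Btc overlapped between the groups. No member passed the threshold: with limma, 0 of 8 members and 0 of 12393 genes (0%) had an adjusted p under 0.05. Without drug replicate 2, 3 genes outside the set passed. At an unadjusted limma p under 0.05 there were 2 of 8 members, against 10.3% of all genes (1275), 5.37% higher and 4.91% lower. An exact permutation test of 3 against 3 samples cannot give a two-sided p under 0.1.

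**Figure D1:**
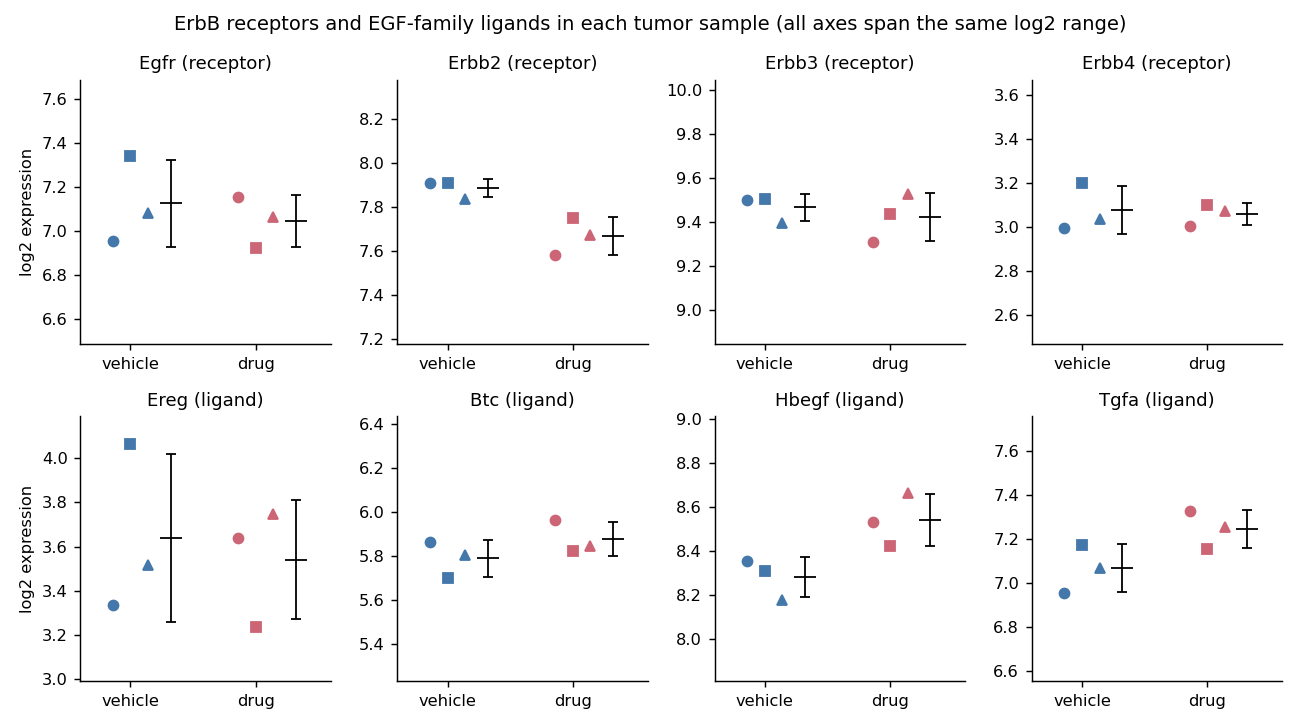
Log2 expression of the 8 measured genes in each sample, with vehicle in blue and drug-treated tumors in red. Circles, squares and triangles are replicates 1, 2 and 3, which pair no samples, black bars give the mean and SD of the 3 samples, and every vertical axis spans the same range. The groups separate for Erbb2 (vehicle at least 7.84, drug at most 7.75) and Hbegf (vehicle at most 8.35, drug at least 8.42).

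Among the receptors, Erbb2 had log2 levels of 7.91, 7.91 and 7.84 in the 3 vehicle samples and of 7.58, 7.75 and 7.67 in the 3 drug-treated samples. The vehicle values were close together and all drug values were below them, with drug replicate 1 the lowest. The means were 7.89 ± 0.042 (SD, n = 3) and 7.67 ± 0.086 (SD, n = 3). The mean was 1.16-fold lower in drug-treated tumors, a log2 difference of -0.22 ± 0.063 (SE) with a 95% confidence interval of -0.37 to -0.066. By limma the unadjusted p was 0.012 and the adjusted p over all genes 0.385, and the exact permutation p was 0.1, the smallest possible. Erbb2 ranked 387 of 12393 genes by p. It was read by 1 probe set, so no other probe set of this gene could be set beside it.

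Luminal mammary markers did not move one way. Of 11 such genes 5 had lower and 6 higher means, with a median difference of 0.016. The list's median level relative to each gene's own mean was -0.033, 0.027 and -0.034 in the vehicle samples and -0.034, -0.025 and 0.069 in the drug samples, which overlap. The summed log2 level ranged from 83.65 to 86.08 in vehicle and from 82.44 to 83.43 in drug-treated tumors, without overlap, and Foxa1, Prom1 and Cited1 had the lower means with the largest differences. The members whose groups did not overlap were Foxa1, Prom1 and Cited1, lower by -1.20, -0.55 and -0.62, and Elf5 and Pgr, higher by 0.14 and 0.11. Pgr lay below the lower quartile of the arrays in every sample, and Cited1 in every sample but vehicle replicate 3. Foxa1 is a transcription factor of luminal cells and Elf5 one of the milk-producing alveolar lineage. The part of the luminal markers in the Erbb2 difference was not tested. In the marker lists plotted by sample, neither the epithelial list nor the fibroblast list separated the groups.

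**Figure D2:**
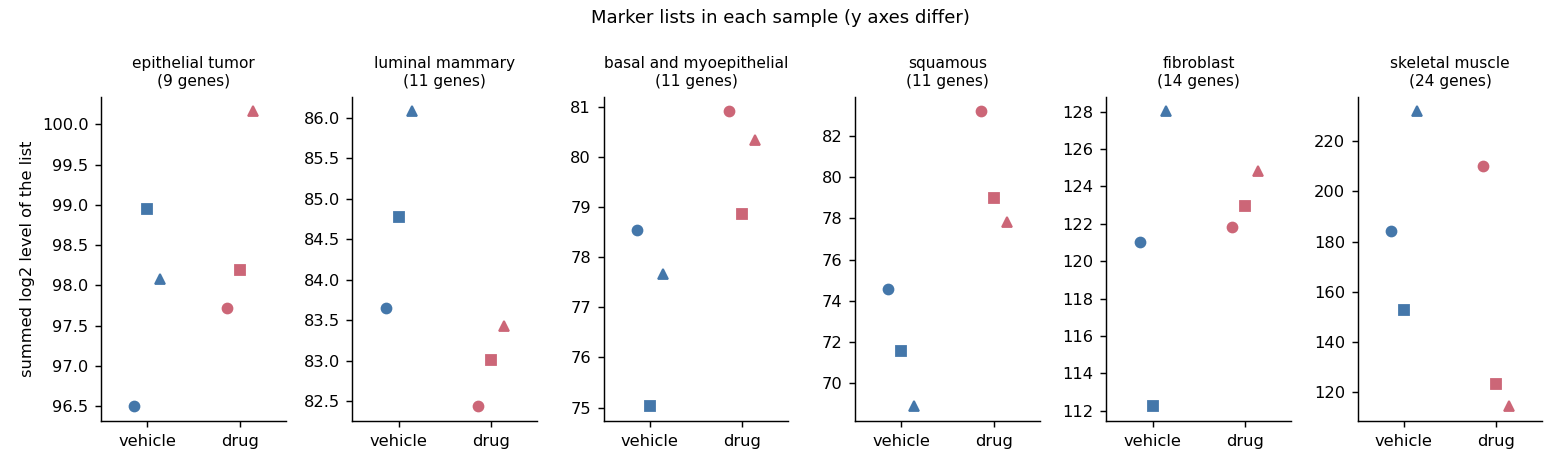
Summed log2 level of 6 marker lists in each sample, with vehicle in blue, drug-treated tumors in red, and circles, squares and triangles for replicates 1, 2 and 3. Each panel has its own vertical axis. The summed level is lower for the luminal list and higher for the basal and squamous lists in every drug-treated sample, while the epithelial, fibroblast and skeletal muscle lists overlap between groups.

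Egfr was read by 5 probe sets that did not move alike. On the brightest, the vehicle values were 6.96, 7.34 and 7.08 and the drug values 7.16, 6.92 and 7.06. The highest value, in vehicle replicate 2, and the lowest, in drug replicate 2, span the other 4, and the groups overlap. The means were 7.13 ± 0.20 and 7.05 ± 0.12 (SD, n = 3 each), with a log2 difference of -0.08 ± 0.11 (SE, 95% interval -0.35 to 0.19) and a limma adjusted p of 0.858. The other 4 probe sets had higher means in drug-treated tumors, by 0.21, 0.26, 0.0064 and 0.15, and overlapped as well. The sign of the Egfr difference thus depended on the probe set. On the set with the second-highest mean the vehicle values were 6.04, 5.92 and 5.92 and the drug values 5.99, 6.12 and 6.40, so that drug replicates 2 and 3 lay above every vehicle sample and drug replicate 1 did not.

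Vehicle replicate 2 had the highest vehicle value on 3 of the 5 Egfr probe sets, and also the highest value of all arrays for Erbb4 and Ereg. In this array the fibroblast markers were lowest, with a summed log2 level of 112.24 over 14 genes against 121.04 to 128.02 in the other 5 arrays. The part of stromal content in these values was not tested. Without this array the Egfr difference was 0.028.

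Erbb3 had log2 levels of 9.50, 9.51 and 9.40 in vehicle and of 9.31, 9.44 and 9.53 in drug-treated tumors. Drug replicate 1 was the lowest and drug replicate 3 the highest of all 6 samples, and the groups overlap. The log2 difference was -0.042 ± 0.073 (SE, n = 3 per group), with a 95% interval of -0.22 to 0.13 and a limma adjusted p of 0.885. A second, dim probe set of Erbb3, below the lower quartile on every array, differed by -0.16 ± 0.075 (SE), with drug values of 3.75, 3.89 and 3.65 against vehicle values of 3.88, 3.96 and 3.94. There drug replicate 2 lay just above vehicle replicate 1. Erbb3 and Erbb2 form a signalling pair. Both had their lowest value in drug replicate 1 on the represented probe sets, which was also the drug array richest in muscle transcripts. Vehicle replicate 3, the richest in muscle of all 6 arrays, had the lowest vehicle value of both genes. At 7.84 for Erbb2 it still lay above every drug value. With a muscle score as covariate the differences were -0.27 for Erbb2 and -0.11 for Erbb3. A link between the 2 genes, or of either to muscle content, was not tested.

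Erbb4, the neuregulin receptor with its own kinase activity, lay at the bottom of the scale. Its values were 3.00, 3.20 and 3.03 in vehicle against 3.00, 3.10 and 3.07 in drug-treated tumors, below the lower quartile on all 6 arrays. The groups overlap throughout, and the log2 difference was -0.019 ± 0.071 (SE, n = 3 per group; 95% interval -0.19 to 0.15; limma adjusted p = 0.951). Values this low may lie close to background, where a change in transcript would show little or not at all. Detection calls were not used here.

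Among the ligands, Hbegf, the heparin-binding EGF-like growth factor, had log2 levels of 8.35, 8.31 and 8.18 in vehicle and of 8.53, 8.42 and 8.66 in drug-treated tumors. All drug values lay above all vehicle values, the closest being drug replicate 2 and vehicle replicate 1. The vehicle mean was 8.28 ± 0.091 and the drug mean 8.54 ± 0.12 (SD, n = 3 each), which is 1.20-fold higher. The log2 difference was 0.26 ± 0.082 (SE) with a 95% confidence interval of 0.062 to 0.46. By limma the unadjusted p was 0.0179 and the adjusted p 0.409, the exact permutation p was 0.1, and Hbegf ranked 538 of 12393 genes by p. With vehicle replicate 3 left out its unadjusted limma p was 0.0567, and with drug replicate 3 left out it was 0.051, in the same direction. A second probe set of Hbegf had the same sign at 0.17 ± 0.11 (SE), with vehicle values of 6.87, 6.90 and 6.54 and drug values of 6.89, 6.88 and 7.06. Its groups overlapped, since vehicle replicates 1 and 2 were as high as drug replicates 1 and 2.

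Tgfa encodes transforming growth factor alpha, a ligand of Egfr made by many epithelia. Its values were 6.95, 7.17 and 7.07 in vehicle against 7.32, 7.15 and 7.25 in drug-treated tumors. Drug replicate 2 lay below vehicle replicate 2, and the other 2 drug values lay above all vehicle values. The log2 difference was 0.18 ± 0.078 (SE, n = 3 per group; 95% interval -0.0084 to 0.37), with an unadjusted limma p of 0.0582 and an adjusted p of 0.504. Of the 2 other probe sets 1 was higher by 0.084 ± 0.061 (SE) and 1 lower by -0.046 ± 0.087 (SE), both with overlapping groups. The Tgfa difference was therefore largest on the brightest probe set and was not shared in sign by all 3. These replicates 2 were the only overlapping pair, so leaving out either one separates the groups by construction. With vehicle replicate 2 left out the unadjusted limma p was 0.0307, and with drug replicate 2 left out it was 0.0432. Of all genes, 25.8% and 27.9% had groups without overlap in these settings. With any other array left out the unadjusted limma p of Tgfa was 0.108 to 0.171.

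Btc, or betacellulin, had values of 5.86, 5.70 and 5.81 in vehicle and of 5.96, 5.82 and 5.85 in drug-treated tumors. The groups overlap through vehicle replicate 1, and the log2 difference was 0.089 ± 0.069 (SE, n = 3 per group; 95% interval -0.076 to 0.25; limma adjusted p = 0.697). A second Btc probe set, below the lower quartile on all arrays, differed by -0.11 ± 0.10 (SE). Ereg, or epiregulin, had values of 3.34, 4.07 and 3.52 in vehicle and of 3.64, 3.24 and 3.75 in drug-treated tumors. Both groups were spread widely around the same level, all 6 values were below the lower quartile, and the log2 difference was -0.099 ± 0.22 (SE, n = 3 per group; 95% interval -0.62 to 0.42; limma adjusted p = 0.911). This interval is the widest of the 8 genes and still holds differences of more than 0.4 in either direction.

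**Figure D3:**
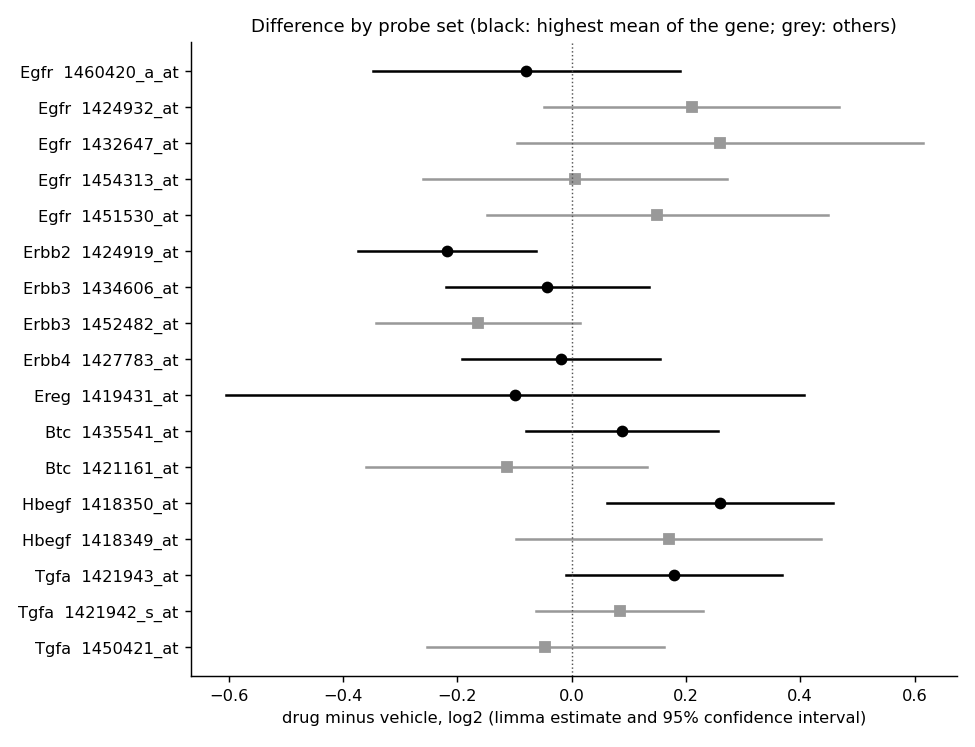
Drug minus vehicle difference on the log2 scale for each of the 17 probe sets of the 8 genes, as the limma estimate with its 95% confidence interval. Black circles are the probe sets used for each gene and grey squares the others. The intervals leave out 0 for the Erbb2 probe set and the brighter Hbegf probe set, and the 5 Egfr probe sets lie on both sides of 0.

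Taking receptors and ligands apart, all 4 receptors had lower means on the represented probe sets, with a median difference of -0.061, and 3 of the 4 measured ligands had higher means, with a median of 0.13. Over all genes the median was -0.0054, and 5938 of 12393 had higher means. For Egfr the sign came from 1 of 5 probe sets and for Btc from 1 of 2, so this count holds for the chosen probe sets alone, and it was not tested. Erbb4 and Ereg lay below the lower quartile on all 6 arrays. The differences of Egfr, Erbb3 and Erbb4 were -0.079, -0.042 and -0.019, where the median size of a difference over all genes was 0.074.

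Of the family's other ligands, fixed as a list of 5, the 4 that were measured all had higher means in drug-treated tumors, with a median difference of 0.17. Egf itself had values of 5.49, 5.63 and 5.57 in vehicle and of 6.03, 5.69 and 5.81 in drug-treated tumors. Its groups did not overlap, with a log2 difference of 0.29 ± 0.096 (SE), an unadjusted limma p of 0.0233 and an adjusted p of 0.424. Epgn, or epigen, an Egfr ligand first described in skin, had values of 5.57, 5.15 and 4.88 in vehicle and of 5.74, 5.33 and 5.998 in drug-treated tumors. The difference was 0.49 ± 0.23 (SE; limma adjusted p = 0.521), and drug replicate 2 lay below vehicle replicate 1. Nrg4 and Nrg3, which bind Erbb4, differed by 0.052 ± 0.11 and 0.038 ± 0.092 (SE). Both were below the lower quartile of the arrays in all samples.

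Squamous and basal epithelial markers had higher summed levels in the drug-treated tumors, as Hbegf and Egf did. The 11 squamous genes summed to between 68.88 and 74.57 in vehicle and between 77.84 and 83.19 in drug-treated tumors, and 9 had higher means. In 7 of them the groups did not overlap, including Krt6a at 1.07 and Sprr1a at 1.90. Of all genes, 17.1% did not overlap, 7.73% with higher drug values. The other squamous genes, Krt10 at -0.18, Krt1 at -0.012, Lor at 0.036 and Ivl at 0.17, overlapped. The 11 basal and myoepithelial genes summed to between 75.03 and 78.54 and between 78.87 and 80.91, with 7 higher means and 5 without overlap. These were Krt5 at 0.62, Krt14 at 0.60, Krt17, Trp63 and Snai2. The others, Acta2, Actg2, Myh11, Cnn1, Oxtr and Mylk, overlapped, with differences from -0.24 to 0.038. Mast cell markers, a list of 9, summed to between 42.19 and 46.89 and between 47.78 and 51.05, with 7 higher means. Those without overlap were Tpsab1, Tpsb2, Cma1 and Mcpt4, higher by 0.61 to 1.67. The others, Cpa3 at 0.92, Fcer1a at 0.073, Hdc at 0.056, Ms4a2 at -0.044 and Kit at -0.26, overlapped. Of the mast cell genes, 2 lay below the lower quartile on every array. T and NK cell markers had lower summed levels, at 65.68 to 67.24 against 63.83 to 65.29 over 14 genes with 10 lower means. B and plasma cell markers did too, at 66.05 to 68.53 against 60.51 to 62.65 over 10 genes with 7 lower means. In both lists the median level relative to each gene's own mean overlapped between the groups. Of the T and NK cell genes, 7 lay below the lower quartile on every array. The B and plasma cell genes without overlap were Jchain at -1.84 and Igha at -1.93. Keratinocytes are a known source of HB-EGF, TGF-alpha and epigen. The part of these cell types in the differences of Hbegf, Egf and Erbb2 was not tested.

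The rest of the pathway was described through lists of release enzymes, adaptors, the RAS-RAF-MEK-ERK cascade, receptor inhibitors, ERK-responsive genes and receptor partners. With the other ligands, 98 of 114 listed genes were measured, and their median difference was 0.0071. The groups did not overlap for 16 of them, 9 higher and 7 lower, or 16.3%, near the 17.1% of all genes. At an unadjusted limma p under 0.05 there were 12 genes, or 12.2% against 10.3% of all genes, and 0 passed the adjusted threshold.

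Of 8 genes for the release of ligands, Adam17, the main enzyme that sheds Tgfa and Hbegf, had values of 9.32, 9.24 and 9.13 in vehicle and of 9.10, 9.12 and 9.06 in drug-treated tumors. All drug values were lower, the closest pair nearly meeting, with a difference of -0.13 ± 0.065 (SE; limma adjusted p = 0.541), and all 3 of its probe sets had this sign. Adam19, Adam9 and Adam10, other metalloproteases of the family, differed by 0.22 ± 0.16, 0.066 ± 0.054 and 0.053 ± 0.052 (SE), with overlapping groups, and 1 of 3 probe sets of Adam10 had the opposite sign. The list's median was 0.020, with 4 higher and 4 lower means.

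Of 19 adaptors and proximal signalling genes 12 had higher and 7 lower means, with a median of 0.0053. Eps8, a substrate of Egfr that links it to actin, had values of 4.96, 5.06 and 5.30 in vehicle and of 5.84, 5.51 and 5.50 in drug-treated tumors. All drug values were higher, with a difference of 0.51 ± 0.13 (SE; limma adjusted p = 0.355), and all 3 probe sets of Eps8 had this sign. The adaptor Nck1 differed by 0.16 ± 0.053 and the kinase Src by 0.28 ± 0.12 (SE), both without overlap. Grb7, an adaptor that binds Erbb2, had values of 8.52, 8.62 and 8.63 in vehicle and of 8.21, 8.40 and 8.54 in drug-treated tumors. Drug replicate 3 lay just above vehicle replicate 1, and the difference was -0.21 ± 0.092 (SE; limma adjusted p = 0.511).

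In the RAS-RAF-MEK-ERK cascade 8 of 13 listed genes were measured, and in all 8 the groups overlapped, with a median of -0.0093. The smallest p belonged to Map2k2, a MEK kinase, at -0.13 ± 0.072 (SE; limma adjusted p = 0.596), though 1 of its 2 probe sets had the opposite sign. Nf1 and Rasa1, which switch RAS off, differed by 0.10 ± 0.079 and 0.037 ± 0.048, and the scaffold Ksr1 by -0.067 ± 0.12 (SE). For Rasa1, 1 of 3 probe sets had the opposite sign. Of 17 negative regulators of the receptors, 1 had groups that did not overlap, or 5.88%, below the 17.1% of all genes. The 1 gene was Ptpn1, a phosphatase that acts on receptor kinases, at -0.12 ± 0.066 (SE; limma adjusted p = 0.593). Errfi1, a feedback inhibitor that binds Egfr and Erbb2, had values of 10.13, 10.09 and 9.88 in vehicle and of 9.80, 9.88 and 10.01 in drug-treated tumors. The groups overlapped at a difference of -0.14 ± 0.090 (SE). Sh3kbp1 and Hgs, which act in the uptake and sorting of receptors, differed by -0.089 ± 0.065 and -0.088 ± 0.070 (SE).

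Of 27 genes that ERK signalling induces, 16 had higher and 11 lower means, and the median was 0.029. The groups did not overlap for 3 higher and 3 lower genes, or 22.2%, against 17.1% of all genes. Ier2, an immediate early gene, had values of 9.50, 9.38 and 9.25 in vehicle and of 9.03, 9.16 and 9.10 in drug-treated tumors, a difference of -0.28 ± 0.079 (SE; limma adjusted p = 0.378). Klf10, a transcription factor of early responses, differed by -0.20 ± 0.064, and Etv5, an ETS factor downstream of receptor kinases, by -0.33 ± 0.12 (SE). The values of Etv5 were below the lower quartile of the arrays, and 1 of its 2 probe sets had the opposite sign. Spred1, an inhibitor of RAS signalling, was higher by 0.20 ± 0.077 (SE), with 2 of 3 probe sets agreeing in sign. The other 2 genes without overlap, named after their values were seen, were Ccnd1, a cyclin that drives entry into the cell cycle, at 0.31 ± 0.12, and Trib1 at 0.16 ± 0.063 (SE).

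Of 15 trafficking genes, chaperones and partners of the receptors, 7 had higher and 8 lower means. Cd44, a hyaluronan receptor that can hold HB-EGF and bind ErbB receptors, had values of 9.30, 9.29 and 9.48 in vehicle and of 9.65, 9.64 and 9.67 in drug-treated tumors. The drug values were close together and all higher, with a difference of 0.29 ± 0.066 (SE; limma adjusted p = 0.321). Tfrc, the transferrin receptor and a marker of recycling endosomes, had values of 11.90, 11.72 and 11.93 in vehicle and of 11.59, 11.44 and 11.35 in drug-treated tumors, a difference of -0.39 ± 0.088 (SE; limma adjusted p = 0.322), though 1 of its 3 probe sets had the opposite sign. Igf1r, the receptor of IGF1, was higher by 0.23 ± 0.068 (SE) without overlap, and Cav1, a coat protein of caveolae, by 0.37 ± 0.25 (SE) with overlap. Hsp90aa1, a chaperone of Erbb2, was named after its values were seen, since its groups did not overlap at a difference of -0.072 ± 0.054 (SE).

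**Figure D4:**
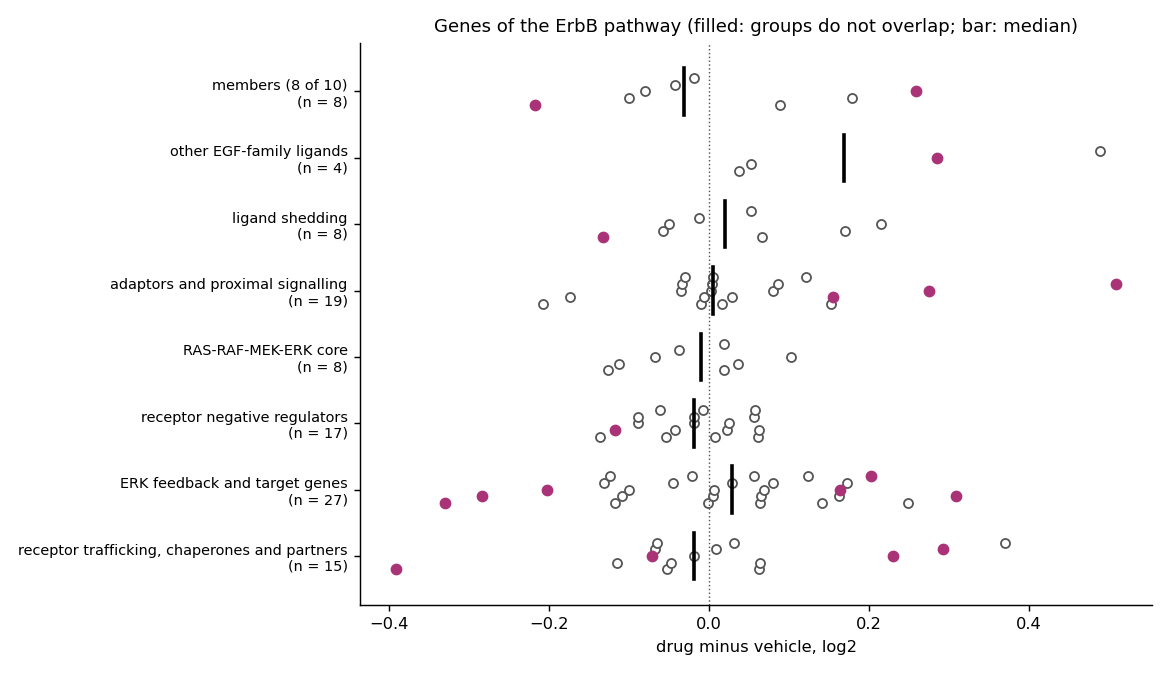
Drug minus vehicle difference on the log2 scale for the 8 measured members and for the genes of 7 pathway lists, 1 point per gene. Filled points are genes whose drug and vehicle values do not overlap, and black bars mark list medians, which lie between -0.031 and 0.17. The filled points fall on both sides of 0 for the members, the ERK-responsive genes and the receptor partners.

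The genes outside the set whose pattern over the 6 arrays was most like that of Erbb2 were sought by the root mean square difference between profiles, each gene centred on its own mean. They were H2az2, a histone H2A variant, Tmem131 and Coro1b, with differences of 0.020, 0.022 and 0.028, where Erbb2 itself varied by 0.12 about its mean. Their drug minus vehicle differences were -0.18, -0.18 and -0.17. For Hbegf they were Gde1, Bbip1 and Pcdhb12, at 0.032, 0.035 and 0.039 against 0.16 for Hbegf about its own mean, and their differences were 0.27, 0.22 and 0.28. These are the closest of all genes tested over 6 arrays and are a description.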

How the data were processed

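The authors deposited log2 expression values per probe set for 6 Affymetrix arrays, 22690 probe sets each. Affymetrix Expression Console is named in the submitters' processing notes, while its version, the summarisation and any normalization were not stated there. That the values are log2 was inferred from their range, and the near-equal quartiles of the arrays could hide a shift shared by most genes. Gene symbols came from the 2016 annotation of the platform, checked by Entrez identifier against GRCm38.p6. The 20380 with 1 symbol gave 12393 genes. Groups came from the treatment labels, which name no batch or pairing.

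The drug and vehicle groups were compared with lmFit and eBayes of limma 3.58.1 (R 4.3.3) without a level filter. Tests were two-sided, and p-values were adjusted by Benjamini-Hochberg across the 12393 genes at a threshold of 0.05. Values of further probe sets came from a fit over all single-symbol probe sets. The fit was tested on simulated data. Members, lists and tests were chosen with earlier results of these data known. Named beyond the members were up to 4 genes per pathway list with the smallest p, and the 3 genes most like 1 receptor and 1 ligand. Alternatives varied the probe set, level filter, normalization, eBayes settings, weights, a muscle covariate and the arrays included. Figures used matplotlib 3.10.9.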

Additional observations from a re-analysis of the deposited data

How the results depend on the processing

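Erbb2, Hbegf and Tgfa kept their direction in all 15 alternatives, with differences of -0.27 to -0.17, 0.17 to 0.32 and 0.072 to 0.23, and no member passed an adjusted p of 0.05 in any. The level filter and the eBayes settings cannot change a difference. For Erbb2, read by 1 probe set, the changes of probe set could not change it either. The groups of Erbb2 and Hbegf did not overlap, so leaving out or weighting arrays could change the size of their differences but not the sign. The kept direction in those settings was thus fixed in advance. Other signs turned: Egfr was 0.11 with the mean of all probe sets, 0.21 with the second-brightest and 0.028 without vehicle replicate 2, and Btc -0.012 and -0.11 with the same changes of probe set. With 1 array left out, Erbb3 ranged from -0.093 to 0.015 (the latter lacking drug replicate 1), Erbb4 from -0.059 to 0.043 (0.043 lacking vehicle replicate 2, 0.0084 lacking drug replicate 1) and Ereg from -0.25 to 0.11 (0.11 lacking vehicle replicate 2, 0.053 lacking drug replicate 2). The members with an unadjusted limma p under 0.05 numbered 2, and 1 with the mean of all probe sets, the second-brightest, the muscle covariate or without both of the arrays rich in muscle (drug replicate 1, vehicle replicate 3), in each case Erbb2. Under the changes of probe set the values of Erbb2 stayed the same, so they do not set it apart from Hbegf. Leaving out 1 array gave 1 to 3 such members, 1 (Erbb2) where vehicle replicate 3 or drug replicate 3 was left out. Of all 12393 genes, 1275 had an unadjusted limma p under 0.05 in the main fit. The number was 978 to 1252 with 1 array left out, and 1044 to 1364 in the other settings just named. Members without overlap numbered 2, 3 with the mean of all probe sets (Erbb3 added, as lower), 1 with the second-brightest probe set, and 2 to 3 with 1 array left out. Listed pathway genes without overlap numbered 16, and 11 to 19 in the settings that kept all arrays and tested each gene once. The lowest counts were 12 with the mean of all probe sets and 11 with the second-brightest. There were 22 to 28 with 1 array left out and 40 without both muscle-rich arrays. The share over all genes also moved, to between 15.6% and 19.3%, between 25.8% and 29.2%, and 41.1%. With every probe set tested on its own, 29 probe sets of listed genes had groups without overlap. Many listed genes have more than 1 probe set, so the 98 measured genes are not the total for this count. The share of the listed probe sets is not given here, so the count cannot be read against the 16.2% of all probe sets. Genes called numbered 0, and 0 to 3 with 1 array left out, the 3 without drug replicate 2 being Gsta3, Serpinb2 and Slc2a9. The causes were not tested. No paired analysis was possible because the labels give no replicate numbers. With 3 arrays per group and no detection calls, small changes and those of Erbb4 and Ereg, low on the scale, could not be resolved.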

Other observations

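Erbb2 lies in a gene-dense block, and after its values were seen the 4 protein-coding genes on each side of it in the GRCm38.p6 gene order were read, of which 5 were measured. They did not share one direction. Stard3 had values of 8.51, 8.47 and 8.33 in vehicle and of 8.12, 8.32 and 8.26 in drug-treated tumors, a difference of -0.20 without overlap, and Grb7 differed by -0.21 with overlap. Mien1, directly beside Erbb2, differed by 0.030 and Pnmt by 0.041, both with overlap. Tcap, a skeletal muscle gene, differed by -0.82 with values from 5.31 to 8.46. For Erbb2, Grb7 and Stard3 alike, drug replicate 1, the drug array richest in muscle transcripts, was the lowest of the 6 samples. Vehicle replicate 3, the richest in muscle of all 6 samples, had 7.84 for Erbb2, 8.63 for Grb7 and 8.33 for Stard3, each above every drug value of that gene. A link between these genes, or of them to muscle content, was not tested.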
